A study of Oryza sativa with 9 samples.

Results

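The genes described here are those of Rubisco, its activase and the enzymes of the Calvin cycle that the study's count table carries under 9 loci. They were taken by locus identifier: 4 loci for RBCS, the small subunit of Rubisco, and 1 locus each for Rubisco activase, sedoheptulose-1,7-bisphosphatase (SBPase), plastid fructose-1,6-bisphosphatase (FBPase), phosphoribulokinase (PRK) and the plastid glyceraldehyde-3-phosphate dehydrogenase subunits GAPA and GAPB. Of these 10 loci, 9 have a row among the 55801 loci of the table, and LOC_Os12g19394, an RBCS locus, was not analysed here. The rule names them by function; it was written with earlier results of these data known. Reads were counted in 9 libraries from shoots of rice seedlings with 4 leaves, all in the ZH11 background and all after 2 d at 4 °C. There were 3 libraries of plants labelled as ossro1c knockouts, 3 labelled as osdreb2b knockouts and 3 of wild type (WT), so each difference is one between genotypes in the cold and not a response to cold. The labels do not say how many mutant lines were used, nor whether replicates were separate plants or pools, so the spread behind each p-value is that between libraries and may be technical.

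Rubisco fixes carbon dioxide in the chloroplast stroma and is built from a large subunit encoded in the plastid and small subunits encoded by a nuclear RBCS family. Rubisco activase uses ATP to remove sugar phosphates that block the active site. The product of fixation is reduced by the NADPH-dependent dehydrogenase made of GAPA and GAPB, and the acceptor ribulose-1,5-bisphosphate is regenerated through steps that include FBPase, SBPase and PRK. Several of these enzymes are switched on in the light through thioredoxin. In the dark, the dehydrogenase and PRK are bound together with the small protein CP12.

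Library totals lay between 58398026 and 69336224 counts. Levels are in CPM, counts relative to the library total, scaled by the trimmed mean of M-values (TMM), a method that sets the bulk of genes level between libraries. CPM values are not divided by gene length, so they are compared between groups for 1 gene and not between genes. Counts of the 9 genes ran from 9839 to 831449 per library. As a check of the labels, OsSRO1c (LOC_Os03g12820) averaged 415 CPM under the ossro1c label, 134 CPM under the osdreb2b label and 2049 CPM in WT. OsDREB2B (LOC_Os05g27930) averaged 68.8 CPM under the ossro1c label, 311 CPM under the osdreb2b label and 169 CPM in WT. Each gene thus had its lowest level in libraries labelled for the other gene, and OsDREB2B was higher under its own label than in WT, so every direction below belongs to the libraries carrying the label, not to a proven genotype. Among the libraries labelled ossro1c, replicate 3 stood apart from replicates 1 and 2. The chi-square per gene, squared differences relative to pure counting noise, was 83.1 and 82.8 between replicate 3 and those replicates. Between replicates 1 and 2 that value was 10.7. Replicate 3 held the highest level of the 3 for 8 of the 9 genes. In bulk shoots, a difference in the share of green cells and a difference in transcript per green cell cannot be told apart.

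Under the osdreb2b label all 9 genes were higher than in WT, by 1.85-fold to 3.14-fold. Under the ossro1c label 7 were higher than in WT, by 1.28-fold to 2.39-fold, and 2 did not pass the test: the RBCS locus LOC_Os12g17600 and GAPB. Tests were edgeR's quasi-likelihood test with Benjamini-Hochberg adjustment over 26112 genes and a threshold of 0.05. In that fit 29.9% of all genes were called higher and 29.6% lower in osdreb2b against WT (59.6% in either direction), and 29.4% were called higher and 31.4% lower in ossro1c against WT (60.9% in either direction). The median log2 fold change of the 9 genes was 1.09 for osdreb2b against WT, where that of all genes tested was 0.03, and 0.73 for ossro1c against WT, where that of all genes was -0.001. Both comparisons share the WT libraries. Set directly against each other, osdreb2b was above ossro1c for 8 of the 9 genes, in a comparison that called 22.9% of all genes higher and 23.6% lower (46.5% in either direction). Of the 9 genes, 0 were called lower in any of the 3 comparisons by this edgeR fit, 0 at an unadjusted p under 0.05 and 0 by DESeq2. On raw library totals, without TMM, edgeR called plastid FBPase lower in osdreb2b against ossro1c (adjusted p = 0.028). Without ossro1c replicate 3, it called LOC_Os12g17600 and GAPB lower in ossro1c against WT (adjusted p = 5.1e-10 and 8.3e-05). The genes are more deeply counted than most, which makes a call easier to reach.

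**Figure D1:**
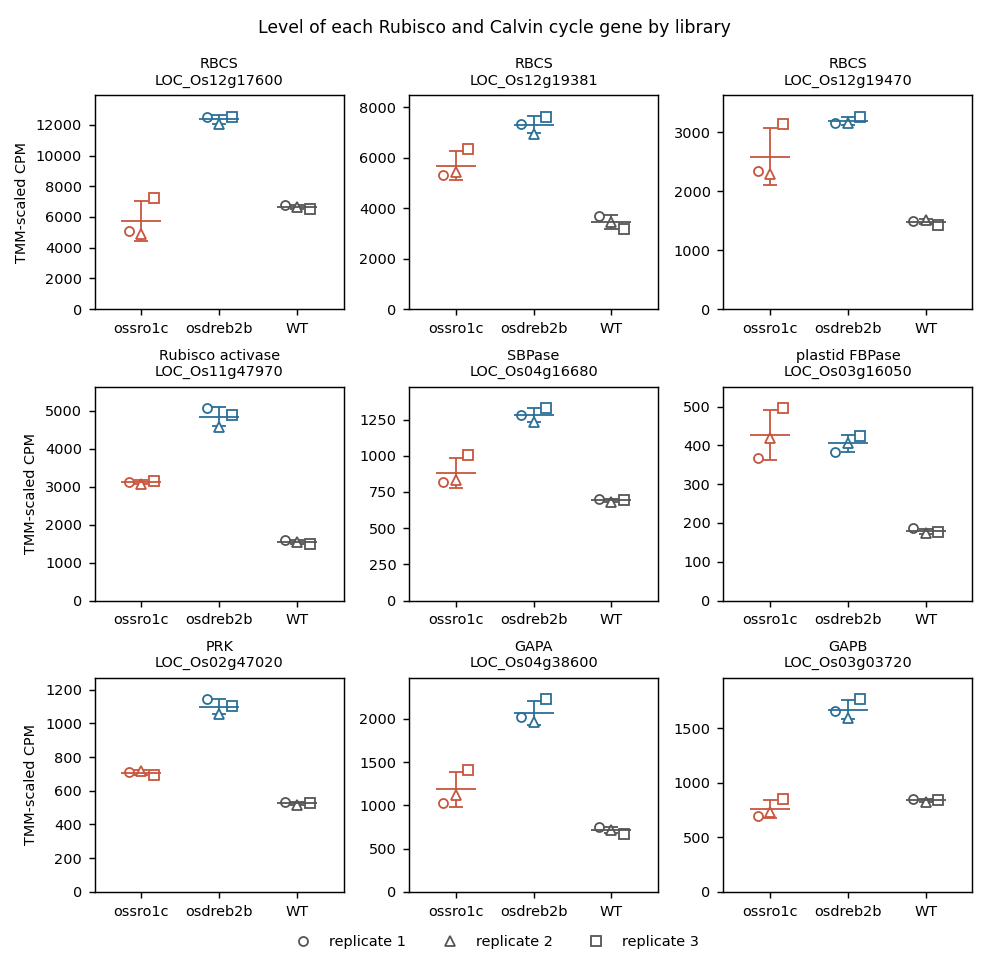
TMM-scaled CPM (vertical axis, from 0) of the 9 genes in the 3 libraries of each group; symbols are replicates, the horizontal mark is the mean and the bar is the SD (n = 3). All osdreb2b libraries lie above all WT libraries in every panel, whereas the ossro1c and WT libraries overlap for LOC_Os12g17600 and GAPB.

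The small subunit loci come first. LOC_Os12g17600, which the reference gene table places as RBCS-C, had 5103, 4923 and 7259 CPM in ossro1c, 12485, 12031 and 12527 CPM in osdreb2b, and 6795, 6661 and 6525 CPM in WT. Replicates 1 and 2 of ossro1c were below every WT library and replicate 3 was above every one, so these groups overlapped, while the osdreb2b libraries stood clear of both. The log2 fold change was -0.21 for ossro1c against WT (SE 0.11, adjusted p = 0.13), 0.89 for osdreb2b against WT (SE 0.12, adjusted p = 1.4e-05) and 1.10 for osdreb2b against ossro1c (SE 0.12, adjusted p = 3.3e-06). Without replicate 3 of ossro1c the first of these was -0.41 and passed (adjusted p = 5.1e-10), and under raw library totals it was 0.11 (adjusted p = 0.39), so no direction can be given for this locus under the ossro1c label.

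The other RBCS loci behaved differently under that label. LOC_Os12g19381, placed as RBCS-A, had 5293, 5440 and 6326 CPM in ossro1c, 7322, 6953 and 7618 CPM in osdreb2b, and 3700, 3458 and 3159 CPM in WT. The 3 groups did not overlap, with osdreb2b highest and WT lowest. It rose by 0.73 on the log2 scale in ossro1c (SE 0.08, adjusted p = 3.8e-06) and by 1.09 in osdreb2b (SE 0.08, adjusted p = 7e-08), each against WT. LOC_Os12g19470 had 2340, 2285 and 3140 CPM in ossro1c, 3153, 3163 and 3265 CPM in osdreb2b, and 1502, 1510 and 1434 CPM in WT. Both mutant groups were clear of WT, whereas replicate 3 of ossro1c came close to the lowest osdreb2b library. The rises against WT were 0.80 in ossro1c (SE 0.10, adjusted p = 1.1e-05) and 1.11 in osdreb2b (SE 0.10, adjusted p = 4.7e-07). The difference between osdreb2b and ossro1c was 0.36 for LOC_Os12g19381 (SE 0.08, adjusted p = 0.0025) and 0.30 for LOC_Os12g19470 (SE 0.10, adjusted p = 0.024). The second of these was lost under 8 of the 15 alternatives, with adjusted p up to 0.27, and the first under raw library totals (adjusted p = 0.053).

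RBCS genes are close copies of one another, and how the authors' counting shared out reads that match more than 1 copy is not given in the sources used here. The split between loci is therefore uncertain, and reads of LOC_Os12g19394 may have been counted at another locus. The sum over the 3 loci does not depend on the split among them. It came to 12737, 12647 and 16730 CPM in ossro1c, 22960, 22147 and 23409 CPM in osdreb2b, and 11997, 11627 and 11118 CPM in WT. All libraries of both mutant labels were above all of WT, but ossro1c replicates 1 and 2 only narrowly. Fitted as 1 row, the sum rose by 0.98 on the log2 scale in osdreb2b against WT (SE 0.09, adjusted p = 8e-07), and by 0.28 in ossro1c against WT (SE 0.09, adjusted p = 0.02). The second value was 0.13 without replicate 3 of ossro1c (adjusted p = 0.0011) and 0.59 under raw library totals, and the call was lost without WT replicate 2 or 3 (adjusted p = 0.061 and 0.087). Between osdreb2b and ossro1c the sum differed by 0.70 (SE 0.09, adjusted p = 3.3e-05).

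The make-up of the RBCS counts differed between groups. LOC_Os12g17600 held 40.1%, 38.9% and 43.4% of them in ossro1c, 54.4%, 54.3% and 53.5% in osdreb2b, and 56.6%, 57.3% and 58.7% in WT. The ossro1c libraries were lowest and the 3 groups did not overlap. LOC_Os12g19381 held 37.8% to 43.0% in ossro1c, 31.4% to 32.5% in osdreb2b and 28.4% to 30.8% in WT. LOC_Os12g19470 held 18.4% ± 0.354 in ossro1c, 14.0% ± 0.277 in osdreb2b and 12.8% ± 0.248 in WT (SD, n = 3). These shares are taken within a library and need no scaling factor, and they were added after the values of the loci had been seen. A two-sided exact permutation test gave p = 0.1 for each share in each of the 3 comparisons, the smallest that 3 libraries against 3 allow. LOC_Os12g17600 took more counts than any other locus of the table in every osdreb2b and WT library and in ossro1c replicate 3, whereas in ossro1c replicates 1 and 2 that place was held by LOC_Os12g19381.

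**Figure D2:**
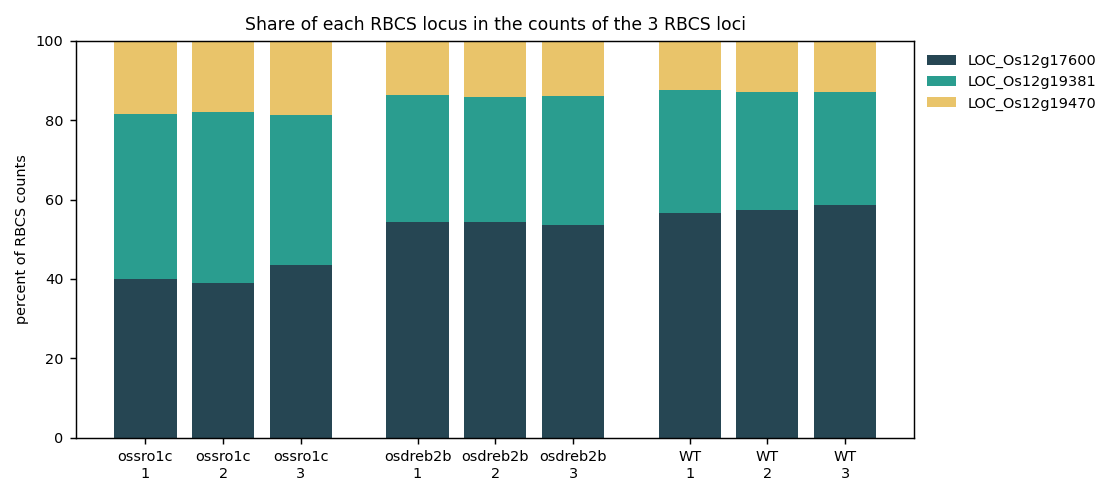
Percent of the counts of the 3 RBCS loci (vertical axis) that each locus took in each library, with the 3 libraries of each group side by side. LOC_Os12g17600 took 38.9% to 43.4% in ossro1c, 53.5% to 54.4% in osdreb2b and 56.6% to 58.7% in WT.

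Rubisco activase (LOC_Os11g47970, the rca gene of the reference table) had the largest fold change of the 9 genes in osdreb2b against WT. It had 3135, 3062 and 3157 CPM in ossro1c, 5075, 4580 and 4897 CPM in osdreb2b, and 1584, 1549 and 1496 CPM in WT. The groups were far apart, and the ossro1c libraries lay within a narrow band that included replicate 3. The rise was 2.02-fold in ossro1c (log2 1.01, SE 0.06, adjusted p = 8.2e-09) and 3.14-fold in osdreb2b (log2 1.65, SE 0.06, adjusted p = 7.7e-11), each against WT. The difference between osdreb2b and ossro1c was 0.64 on the log2 scale (SE 0.06, adjusted p = 1.4e-06). The ratio of activase counts to summed RBCS counts, also added after the values had been seen, was 0.246, 0.242 and 0.189 in ossro1c, 0.221, 0.207 and 0.209 in osdreb2b, and 0.132, 0.133 and 0.135 in WT. Every mutant library was above every WT library, so activase and RBCS transcripts changed unequally, and the mutant groups overlapped (exact permutation p = 0.4 between them, and 0.1 for each against WT).

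Of the subunits of the reducing enzyme, both are catalytic, and GAPB carries the extension through which the enzyme is regulated. GAPA (LOC_Os04g38600) had 1031, 1116 and 1412 CPM in ossro1c, 2027, 1960 and 2226 CPM in osdreb2b, and 746, 715 and 674 CPM in WT. The 3 groups stood apart, osdreb2b highest. GAPA rose by 0.74 on the log2 scale in ossro1c (SE 0.10, adjusted p = 2.7e-05) and by 1.54 in osdreb2b (SE 0.10, adjusted p = 2e-08), each against WT. GAPB (LOC_Os03g03720) had 691, 731 and 846 CPM in ossro1c, 1654, 1589 and 1762 CPM in osdreb2b, and 849.7, 822 and 846 CPM in WT. Replicates 1 and 2 of ossro1c were below all WT libraries and replicate 3 was among them, while every osdreb2b library was above both other groups (1.99-fold over WT, log2 0.99, SE 0.08, adjusted p = 1.1e-07). For ossro1c against WT the change of GAPB was -0.15 (SE 0.08, adjusted p = 0.11). It was -0.24 without ossro1c replicate 3 (adjusted p = 8.3e-05), 0.01 under upper-quartile scaling (adjusted p = 0.92) and 0.17 under raw library totals (adjusted p = 0.049).

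Because that direction hangs on the scaling, the ratio of GAPB to GAPA counts within each library was taken, after these values had been seen. It was 0.67, 0.656 and 0.599 in ossro1c, 0.816, 0.811 and 0.791 in osdreb2b, and 1.14, 1.15 and 1.25 in WT. The 3 groups did not overlap, with ossro1c lowest and WT highest. The exact permutation test gave p = 0.1 for each pair of groups. The ratio shows that the subunits' transcripts changed unequally, not that either was constant.

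**Figure D3:**
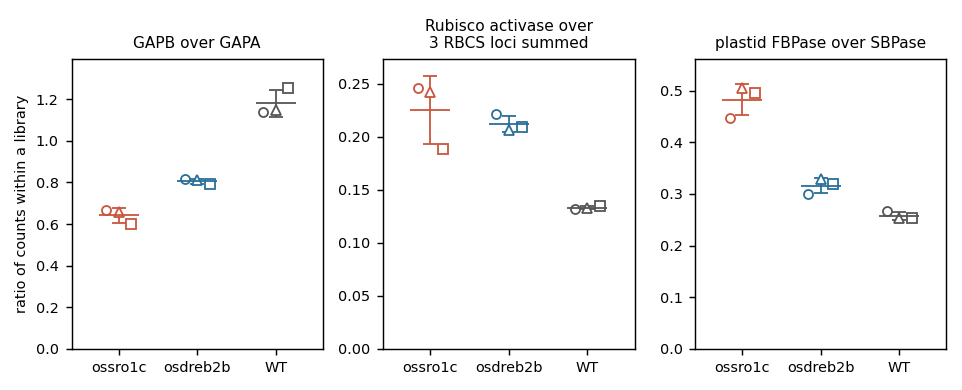
Ratio of counts within a library (vertical axis, from 0) for GAPB over GAPA, Rubisco activase over the 3 RBCS loci and plastid FBPase over SBPase; symbols are replicates 1 (circle), 2 (triangle) and 3 (square), with the mean and SD (n = 3). GAPB over GAPA is 0.599 to 0.67 in ossro1c, 0.791 to 0.816 in osdreb2b and 1.14 to 1.25 in WT.

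Among the 9 genes, the regeneration enzymes plastid FBPase, SBPase and PRK were higher than in WT under both labels. Plastid FBPase (LOC_Os03g16050), which makes fructose-6-phosphate, had 367, 419 and 496 CPM in ossro1c, 384, 406 and 426 CPM in osdreb2b, and 187, 173 and 176 CPM in WT. The mutant groups overlapped and both were clear of WT. It rose 2.39-fold in ossro1c (log2 1.26, SE 0.10, adjusted p = 8.5e-08) and 2.27-fold in osdreb2b (log2 1.18, SE 0.10, adjusted p = 1.5e-07), each against WT. Between osdreb2b and ossro1c it differed by -0.08 on the log2 scale (SE 0.10, adjusted p = 0.55), by 0.04 without ossro1c replicate 3 and by -0.25 under raw library totals (adjusted p = 0.028). It was thus the member with no call between the mutant labels, and under the ossro1c label the one with the largest rise of the 9.

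SBPase (LOC_Os04g16680), whose amount can limit the cycle in tobacco, had 818, 829 and 1003 CPM in ossro1c, 1279.9, 1236 and 1329 CPM in osdreb2b, and 699.9, 682 and 693 CPM in WT. The 3 groups stood apart, osdreb2b highest. SBPase rose by 0.35 on the log2 scale in ossro1c (SE 0.08, adjusted p = 0.0016), which was 0.67 under raw library totals, and by 0.89 in osdreb2b (SE 0.08, adjusted p = 3.8e-07), each against WT. PRK (LOC_Os02g47020), which makes the acceptor of carbon dioxide, had 711, 719 and 692 CPM in ossro1c, 1141, 1053 and 1103 CPM in osdreb2b, and 533, 517 and 529 CPM in WT. These groups were also apart, and PRK was the member for which ossro1c replicate 3 was the lowest of its group. PRK rose by 0.43 in ossro1c (SE 0.06, adjusted p = 3.6e-05), which was 0.75 under raw library totals, and by 1.06 in osdreb2b (SE 0.06, adjusted p = 4.2e-09), each against WT. Between osdreb2b and ossro1c, PRK differed by 0.64 (SE 0.06, adjusted p = 1.3e-06) and SBPase by 0.54 (SE 0.08, adjusted p = 8.1e-05).

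Both bisphosphatases act on like substrates, yet their transcripts changed unequally. The ratio of plastid FBPase to SBPase counts was 0.448, 0.506 and 0.495 in ossro1c, 0.2999, 0.328 and 0.3202 in osdreb2b, and 0.267, 0.254 and 0.253 in WT. The ossro1c libraries were highest and the 3 groups did not overlap (exact permutation p = 0.1 for each pair). This ratio too was taken after the values of both genes had been seen.

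**Figure D4:**
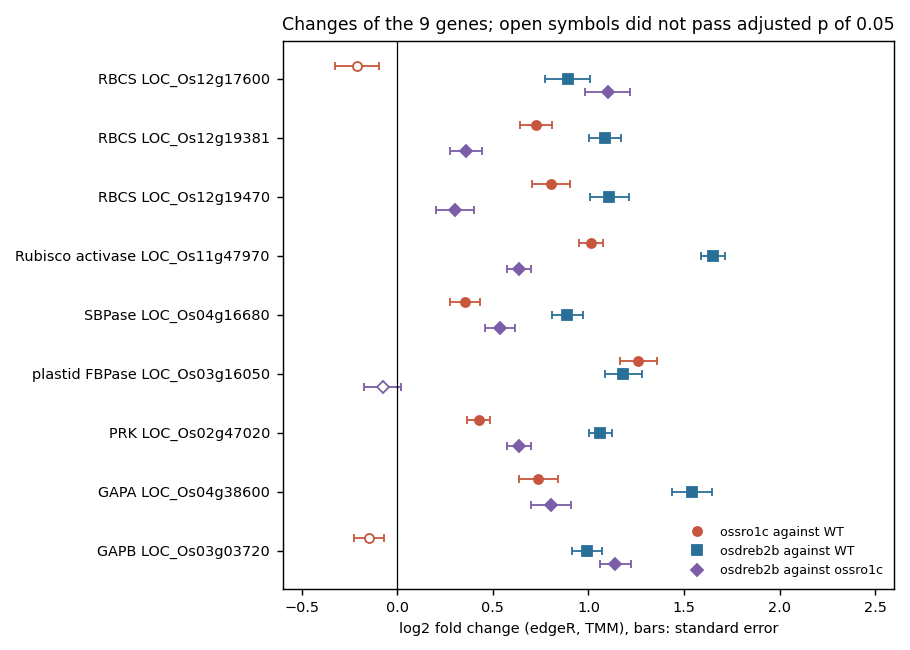
Log2 fold change (horizontal axis, edgeR with TMM) of the 9 genes in 3 comparisons, with the standard error as bars; open symbols did not pass an adjusted p of 0.05. Changes of osdreb2b against WT lie between 0.89 and 1.65, and those of ossro1c against WT between -0.21 and 1.26.

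Ordered by group, 6 of the 9 genes were highest in osdreb2b, next in ossro1c and lowest in WT, with a call at each step: LOC_Os12g19381, LOC_Os12g19470, Rubisco activase, SBPase, PRK and GAPA. The step between the mutant labels was lost for LOC_Os12g19470 under 8 of the 15 alternatives, and for LOC_Os12g19381 under raw library totals. The share of all genes with this order was not computed, so the count of members cannot be set against it. For LOC_Os12g17600 and GAPB, osdreb2b was above both other groups and those 2 did not differ beyond the test. For plastid FBPase both mutant groups were above WT with no call between them. Together the 9 genes took 2.22%, 2.22% and 2.66% of all counts in ossro1c, 3.42%, 3.29% and 3.46% in osdreb2b, and 1.48%, 1.45% and 1.4% in WT. The groups did not overlap in this share, which involves no scaling between libraries but moves with whatever else the library holds. All 3 osdreb2b libraries lay above all 3 of WT for 9 of 9 genes and all 3 of ossro1c above all 3 of WT for 7 of 9. Among all genes tested such a separation upwards was found for 35.2% in osdreb2b against WT and for 32.5% in ossro1c against WT, and one downwards for 34.9% and 34.7%. In osdreb2b against ossro1c, 8 of the 9 genes were separated upwards, where 27.1% of all genes were and 27.8% were separated downwards.

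Scaling mattered most under the ossro1c label. Without TMM factors, on raw totals, the median of all genes was 0.32 for ossro1c against WT and 0.17 for osdreb2b against WT, and the share of calls that were higher was 63.2% against 48.4% with TMM for ossro1c, and 57.2% against 50.3% for osdreb2b. Relative to the median of all genes, which takes any such shift out by construction, the median of the 9 genes was 0.73 for ossro1c against WT and 1.05 for osdreb2b against WT. Under raw totals 8 genes passed as higher in ossro1c, GAPB among them, and LOC_Os12g17600 did not pass.

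**Figure D5:**
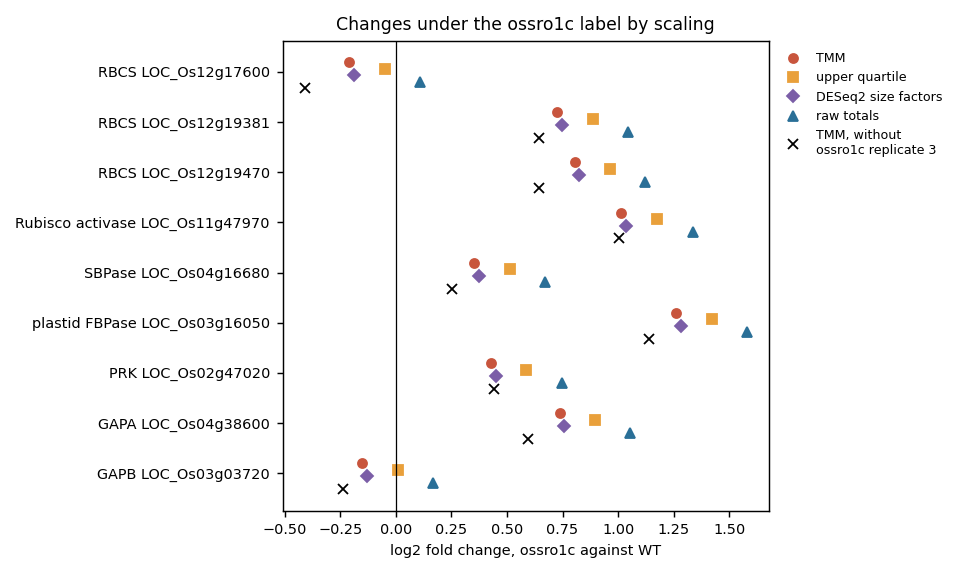
Log2 fold change of ossro1c against WT (horizontal axis) for the 9 genes under 4 scalings, and under TMM without ossro1c replicate 3 (crosses). Raw totals shift every gene to the right; LOC_Os12g17600 and GAPB change sign with the scaling, and the other 7 genes are above 0 in each.

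The rest of the cycle and its side paths were followed through lists of loci chosen by function. Only loci whose name the reference table holds near their position are named and counted first; counts over whole lists were added after the values had been seen, and the identity of their other loci was not checked. The counts are to be read beside the shares of all genes called, 29.4% higher and 31.4% lower in ossro1c against WT, and 29.9% higher and 29.6% lower in osdreb2b against WT. Both Calvin cycle loci with a checked name were higher in osdreb2b against WT, and in ossro1c against WT 1 was lower and 1 did not pass. The lower one is ALDP, whose named gene lay 0.998 Mb from the expected position, barely inside the limit of 1 Mb. Of all 12 further Calvin cycle loci, 6 were higher and 2 lower in ossro1c against WT (median log2 0.15), and 9 were higher and 3 did not pass in osdreb2b against WT (median 0.73). ALDP (LOC_Os11g07020), the plastid aldolase that feeds both bisphosphatases, fell to 2618 CPM in ossro1c, against 3445 CPM in WT (log2 -0.40, SE 0.07, adjusted p = 0.00014). It rose to 6492 CPM in osdreb2b (log2 0.91, SE 0.07, adjusted p = 4.3e-08). RPE (LOC_Os03g07300), the epimerase that makes ribulose-5-phosphate, averaged 471 CPM in ossro1c and 529 CPM in WT and did not pass (adjusted p = 0.1), but rose to 881 CPM in osdreb2b (log2 0.74, SE 0.09, adjusted p = 4.6e-06).

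Photorespiration recovers the carbon lost when Rubisco takes up oxygen. The 3 loci with a checked name were higher under both labels. Of all 11 listed loci, 7 were higher and 2 lower in ossro1c against WT (median 0.64), and 11 were higher in osdreb2b against WT (median 1.05). In osdreb2b against ossro1c, 6 of the 11 were higher and 4 lower (median 0.52), where 22.9% of all genes were higher and 23.6% lower. The list as a whole thus had no single order between the mutant labels. GDCSH (LOC_Os10g37180), the H protein of glycine decarboxylase, averaged 492 CPM in ossro1c, 331 CPM in osdreb2b and 134 CPM in WT. The glycolate oxidase gene GLO5 (LOC_Os07g05820) averaged 1405 CPM in ossro1c, 819 CPM in osdreb2b and 395 CPM in WT. Both were lower in osdreb2b than in ossro1c (log2 -0.57, SE 0.11, adjusted p = 0.00083 for GDCSH, and -0.78, SE 0.09, adjusted p = 6.8e-06 for GLO5), the opposite order to that of 8 of the 9 Calvin cycle genes. GLO1 (LOC_Os03g57220), another glycolate oxidase gene, rose by 0.64 in ossro1c and by 0.59 in osdreb2b, each against WT, with no call between osdreb2b and ossro1c (log2 -0.05, adjusted p = 0.57).

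Cytosolic relatives of the same enzymes, which serve sucrose synthesis and glycolysis, were called in both directions, in shares that for so few loci say little beside the 29.4% to 31.4% of all genes called in a direction. Of 5 with a checked name, 1 was higher and 3 lower in ossro1c against WT, and 2 were higher and 2 lower in osdreb2b against WT. Of all 7 listed, 1 was higher and 4 lower in ossro1c against WT, and 2 were higher and 4 lower in osdreb2b against WT. CFBP1 (LOC_Os01g64660), the cytosolic FBPase, averaged 488 CPM in ossro1c, 374 CPM in osdreb2b and 194 CPM in WT, and so rose by 1.33 (SE 0.06, adjusted p = 8.8e-10) and 0.94 (SE 0.06, adjusted p = 2.1e-08) on the log2 scale. The cytosolic dehydrogenase genes GAPC1 (LOC_Os08g03290) and GAPC3 (LOC_Os02g38920) fell under both labels, GAPC1 to 350.1 CPM in ossro1c and 499 CPM in osdreb2b, against 977 CPM in WT, and GAPC3 to 34.6 CPM in ossro1c and 72.6 CPM in osdreb2b, against 104 CPM in WT. GAPC2 (LOC_Os04g40950) rose to 203 CPM in osdreb2b, against 143 CPM in WT (adjusted p = 0.00024), and averaged 139.8 CPM in ossro1c, which did not pass against WT (adjusted p = 0.8). The ratio of GAPA and GAPB counts to those of GAPC1, GAPC2 and GAPC3, added after the values had been seen, was 3.63, 3.90 and 3.61 in ossro1c, 4.57, 4.75 and 5.19 in osdreb2b, and 1.28, 1.27 and 1.24 in WT, with no overlap between groups.

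Antenna genes of the photosystems bind the chlorophyll that collects light. The 3 with a checked name were higher in osdreb2b against WT, and 2 of them were lower in ossro1c against WT. Of all 14 listed light-harvesting loci, 4 were higher and 7 lower in ossro1c against WT (median -0.74), where 29.4% of all genes were higher and 31.4% lower, and 13 were higher in osdreb2b against WT (median 2.27), where 29.9% of all genes were. Their summed level was 1844 to 2547 CPM in ossro1c, 17203 to 19042 CPM in osdreb2b and 3243 to 3468 CPM in WT. CAB2R (LOC_Os01g41710), a chlorophyll a/b-binding protein gene with a checked name, averaged 105 CPM in ossro1c, 2563 CPM in osdreb2b and 104 CPM in WT. It rose by 4.63 on the log2 scale in osdreb2b against WT (SE 0.17, adjusted p = 2e-10) and did not pass in ossro1c against WT (adjusted p = 0.93). RCABP89 (LOC_Os03g39610), with a checked name, averaged 224 CPM in ossro1c, 4355 CPM in osdreb2b and 577 CPM in WT. RCABP69 (LOC_Os07g37550) averaged 128 CPM in ossro1c, 1011 CPM in osdreb2b and 228 CPM in WT. Whether the 9 genes and the antenna genes differ as groups was not tested. Few markers of cells other than green leaf cells could be tested. Of the 3 root markers, 1 passed the filter on low counts, Lsi1 (LOC_Os02g51110), a silicon channel. Its level was 15.8 to 19.8 CPM in ossro1c, 8.49 to 11.8 CPM in osdreb2b and 2.18 to 2.82 CPM in WT. Counts were 0 for 2 of the 3 in every ossro1c library, for 1 in every osdreb2b library and for 2 in every WT library. Lsi1 was higher than in WT under both labels. The 5 cell division markers, 1 of them at 0 in every library of each group, summed to 12.4 to 15.5 CPM in ossro1c, 29.8 to 34.1 CPM in osdreb2b and 9.97 to 12.8 CPM in WT. The ossro1c and WT ranges overlap, and most of the osdreb2b sum is CDKB2-1 (LOC_Os08g40170), a kinase of dividing cells, at 27.3 CPM in osdreb2b against 7.49 CPM in WT. Of the 4 that passed the filter, 1 was higher and 3 did not pass in ossro1c against WT, and 2 were higher and 2 did not pass in osdreb2b against WT. The part of these markers in the results was not tested.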

How the data were processed

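The authors deposited raw counts per locus, not normalised, under LOC_Os identifiers. Tools listed, without role or order, in the submitters' processing notes are HISAT2 2.2.1, fastp 0.23.4, DESeq2 and StringTie 2.1.4; for the genome build, annotation, strand setting and handling of multiply matching reads, nothing is stated in those sources. Groups and replicates came from sample titles, and 0 columns were unused. The genes and lists were chosen with earlier results of these data known.

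From the deposited counts, edgeR 4.0.16 (R 4.3.3) kept 26112 genes by filterByExpr, which hold 99.965% or more of each library, and scaled them by TMM. A robust quasi-likelihood model with a term for each group was fitted to the 9 libraries together. Benjamini-Hochberg adjustment covered all genes of a comparison, with a threshold of 0.05. Standard errors were taken as log2 fold change (unsigned) divided by the root of F. For the RBCS sum, 3 rows were replaced by 1. Ratios and shares used two-sided exact permutation tests. Likeness used log2 CPM with a prior count of 2. The fit was tested on data simulated with changes in ossro1c against WT. It called 100% of 100 genes changed by log2 1 and 63% of 100 changed by log2 0.5. Among 25509 genes tested, 6 unchanged ones were called. The simulation gave all libraries the same spread, with no replicate set apart as ossro1c replicate 3 was.

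Named genes were all members, the targeted genes, list members with the highest and lowest called changes (at most 2 a direction and comparison), and the genes nearest by likeness (5 of the lists and 2 of the whole table). A list name was used only where the reference gene table (ASM3414082v1) holds it on the locus's chromosome within 1 Mb of the position interpolated from 57 other loci. The name of OsSRO1c, and those of 6 of the 10 genes, could not be checked in this way. Alternatives were upper-quartile scaling, raw totals, DESeq2 1.42.0, no filter, the 6 libraries compared alone, a replicate block and leaving out each library. No sequence was used here. The planned search of promoters for motifs was not run, as no promoter sequences were used. No replicate pair agreed within counting noise (chi-square per gene of at least 8.54).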

Additional observations from a re-analysis of the deposited data

How the results depend on the processing

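Of 405 values of the 9 genes under alternatives, 389 kept both direction and side of the threshold. Raw library totals gave a median of the 9 genes of 1.04 for ossro1c against WT, and 1.23 for osdreb2b against WT, where upper-quartile scaling gave 1.20. Raw totals also gave 1 gene lower in osdreb2b than in ossro1c (plastid FBPase), against 0. LOC_Os12g17600 in ossro1c against WT was 0.11 under raw totals, GAPB there was 0.010 with upper quartiles and 0.17 on raw totals, and plastid FBPase in osdreb2b against ossro1c was -0.18 to 0.043 when 1 library was left out, positive without ossro1c replicate 3. LOC_Os12g17600 by itself had -0.21, against 0.28 for the RBCS sum. Leaving out 1 library, the number of genes lower in ossro1c against WT was 0 to 2, the 2 being LOC_Os12g17600 and GAPB without ossro1c replicate 3, and the RBCS sum was 0.13 to 0.35, with adjusted p of 0.061 without WT replicate 2 and 0.087 without WT replicate 3. The number higher stayed at 7 in ossro1c against WT and at 9 in osdreb2b against WT when any 1 library was left out, and was 7 to 8 in osdreb2b against ossro1c.

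The labels state no pairing of libraries by replicate number. Deviations of same-numbered libraries from their group means correlated at -0.027 to 0.103, and those of different-numbered libraries at -0.128 to 0.091. With 3 libraries a group, such correlations cannot settle whether the numbers pair libraries. With a replicate block the RBCS sum was 0.27 in ossro1c against WT, 0.98 in osdreb2b against WT and 0.71 in osdreb2b against ossro1c, and in ossro1c against WT it called 7501 genes higher and 8165 lower, against 7685 and 8207 without it. All 27 calls of single genes were unchanged by the block. With 3 libraries a group, exact tests cannot go below 0.1.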

Other observations

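The genes whose profile over the 9 libraries was nearest to the mean profile of the 9 Calvin cycle genes were looked for among 14005 genes with a mean of at least 5 CPM, by root mean square distance of centred log2 CPM. The nearest loci were LOC_Os06g02380 at 0.0633 and LOC_Os06g04710 at 0.0668, whose names were not looked up here. LOC_Os06g02380 averaged 348 CPM in ossro1c, 497 CPM in osdreb2b and 234 CPM in WT, and LOC_Os06g04710 averaged 26.7 CPM in ossro1c, 38.3 CPM in osdreb2b and 17.39 CPM in WT. Both were nearer to that mean than any of the 9 genes themselves, which lay at 0.105 (PRK) to 0.331 (plastid FBPase). Among 16 list loci with checked names the nearest were GLO1 at 0.293, GAPC2 at 0.295, RPE at 0.299, ALDP at 0.401 and CFBP1 at 0.432.

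The spread between replicates also differed by label. The coefficient of variation of the 9 genes had a median of 11.7% in ossro1c, 4.56% in osdreb2b and 2.80% in WT, and that of 2197 genes with a mean of at least 100 CPM had a median of 10.4%, 4.10% and 2.48% in the same order. Within ossro1c it ran from 1.59% for Rubisco activase to 22.6% for LOC_Os12g17600.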
